A study of Homo sapiens with 36 samples.

Results

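The genes described here are 10 targets of the hypoxia-inducible factors that do not code for glycolytic enzymes, namely VEGFA, CA9, ADM, NDRG1, ANGPTL4, EGLN1, EGLN3, BNIP3, ANKRD37 and P4HA1. They were chosen by name, with earlier results of these data known, and all 10 were found among the 66366 named genes kept from each library. The series holds 36 RNA libraries, 3 in each of 12 groups, and the groups combine 3 treatments with 4 established human lines of non-small cell lung cancer. The labels give H3255 an EGFR with L858R, H1975 an EGFR with L858R and T790M, H820 an EGFR with an exon 19 deletion and T790M, and A549 a wild-type EGFR. Cells were held for 24 h with 3 µM of MinE07, an aptamer (an RNA whose fold gives it affinity for a protein) directed at EGFR, with C36, a control aptamer in an extended form at the same dose, or with the DPBS and magnesium vehicle. All groups were treated in 1% serum. A549 was kept in DMEM and the other lines in RPMI, so medium cannot be told apart from A549, and each line stands for 1 EGFR genotype and 1 background together. The series text speaks of independent experiments, and no source ties libraries of the same number together, so p-values measure the spread between these libraries. The labels name no oxygen level.

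A hypoxia-inducible factor pairs an oxygen-regulated alpha subunit, coded by HIF1A or EPAS1, with a stable partner such as ARNT. In the presence of oxygen, the prolyl hydroxylases EGLN1, EGLN2 and EGLN3 modify the alpha subunit, and the ubiquitin ligase VHL then marks it for destruction. When the subunit persists, the pair binds DNA at short motifs with the core ACGTG or GCGTG and raises transcription of nearby genes, among them EGLN1 and EGLN3 themselves, which closes a feedback loop. Signalling from growth factor receptors, EGFR among them, is also known to raise the level of the alpha subunit. Here RNA was measured and the subunits' protein was not.

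Of the 10 genes, 8 had an entry in the RefSeq promoter table (build GRCh38.p14), whose windows of 300 bases run from 250 before to 50 after the start of transcription. The motif ACGTG, searched on both strands, was present in 6 of these 8 windows (EGLN1, CA9, P4HA1, BNIP3, ANKRD37 and ANGPTL4) and in 21.4% of the 35116 windows kept. The motif GCGTG was present in 2 of the 8, BNIP3 and ADM, and in 36.5% of the windows kept. The EGLN3 window held neither motif, and no other region was searched. The 5 windows in which ACGTG or its reverse complement CACGT lay nearest to the start are printed 5′ to 3′ on the strand of the gene. Capitals mark the match.
EGLN1, chr1:231422238-231422537, minus strand: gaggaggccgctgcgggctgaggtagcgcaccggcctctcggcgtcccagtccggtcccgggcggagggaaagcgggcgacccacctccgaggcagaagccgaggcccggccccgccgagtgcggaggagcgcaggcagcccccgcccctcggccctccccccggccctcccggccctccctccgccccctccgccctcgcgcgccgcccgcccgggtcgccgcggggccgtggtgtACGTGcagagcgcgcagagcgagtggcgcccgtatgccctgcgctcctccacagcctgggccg
CA9, chr9:35673678-35673977, plus strand: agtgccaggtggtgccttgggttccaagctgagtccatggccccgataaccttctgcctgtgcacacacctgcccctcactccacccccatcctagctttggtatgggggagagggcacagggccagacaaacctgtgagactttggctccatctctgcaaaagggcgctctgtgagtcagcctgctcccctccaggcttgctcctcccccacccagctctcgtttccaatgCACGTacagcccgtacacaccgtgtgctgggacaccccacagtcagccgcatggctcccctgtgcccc
P4HA1, chr10:73096817-73097116, minus strand: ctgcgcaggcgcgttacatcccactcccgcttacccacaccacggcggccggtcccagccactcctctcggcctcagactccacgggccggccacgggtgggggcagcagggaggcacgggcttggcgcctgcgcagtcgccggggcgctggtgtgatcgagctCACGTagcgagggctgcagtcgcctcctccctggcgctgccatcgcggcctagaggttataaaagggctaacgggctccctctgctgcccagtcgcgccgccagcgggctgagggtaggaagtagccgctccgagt
BNIP3, chr10:131981874-131982173, minus strand: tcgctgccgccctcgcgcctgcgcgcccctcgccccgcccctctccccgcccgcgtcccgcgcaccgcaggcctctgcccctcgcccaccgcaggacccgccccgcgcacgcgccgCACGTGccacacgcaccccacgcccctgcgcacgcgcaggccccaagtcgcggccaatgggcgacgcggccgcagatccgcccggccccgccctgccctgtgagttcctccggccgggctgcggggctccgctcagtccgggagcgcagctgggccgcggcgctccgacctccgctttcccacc
ANKRD37, chr4:185396591-185396890, plus strand: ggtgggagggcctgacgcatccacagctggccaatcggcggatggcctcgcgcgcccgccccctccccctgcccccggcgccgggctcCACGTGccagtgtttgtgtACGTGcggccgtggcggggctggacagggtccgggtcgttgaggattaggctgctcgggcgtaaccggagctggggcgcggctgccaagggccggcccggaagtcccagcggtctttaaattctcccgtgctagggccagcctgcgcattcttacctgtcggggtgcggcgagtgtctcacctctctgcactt
The match began 13 bases before the start in EGLN1, 18 in CA9 and 86 in P4HA1. BNIP3 and ANKRD37 held the palindrome CACGTG, which reads as ACGTG on both strands, at 134 and 162 bases, and ANKRD37 held a further ACGTG at 143 bases. A match describes these letters in this window and is not evidence of binding.

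Values are FPKM (fragments scaled by gene length and by the number of mapped fragments), so levels can be compared between genes. Summed FPKM ran from 362928 to 449811 per library and relative depth from 0.590 to 1.38 of the median library. The lowest sum was that of MinE07 library 1 of H820. Epithelial markers were expressed in every line. The lung lineage factor NKX2-1 had a median of 73.7 FPKM in H3255, 20.2 in H1975 and 30.7 in H820, and was near 0 in A549 (0.0192), which is a line of lung origin by its labels. PTPRC, the pan-leukocyte marker, reached at most 0.0520 FPKM in any library, and the 3 endothelial markers summed to at most 0.814 FPKM. CD68, also on the immune list, had a median of 60.7 FPKM in H1975, 17.0 in H820, 80.7 in A549 and 1.94 in H3255. On the fibroblast list, COL1A1 and COL1A2 had medians of 5.19 and 6.93 FPKM in H1975, where COL3A1 and DCN were near 0.

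Without an aptamer, the 10 genes had very different levels in the 4 lines. CA9, a cell surface carbonic anhydrase, was at 20.0 ± 1.21 FPKM (SD, n = 3) in H1975 and 28.9 ± 0.087 in A549. In H3255 it was at 0.050 ± 0.029 and in H820 at 0.094 ± 0.035. ANGPTL4, a secreted inhibitor of lipoprotein lipase, was at 20.0 ± 1.11 FPKM in H1975 and 22.6 ± 1.05 in A549 against 0.525 ± 0.077 in H3255 and 0.441 ± 0.028 in H820. H1975 and A549 were the high lines for both genes, and no library of H3255 or H820 reached them.

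VEGFA, the angiogenic growth factor, was highest in H3255 (52.7 ± 4.01 FPKM), followed by H1975 (33.8 ± 2.04), A549 (13.8 ± 0.468) and H820 (5.75 ± 0.094). ADM, the precursor of the vasodilator adrenomedullin, was at 60.1 ± 3.01 FPKM in A549 and between 7.37 and 9.88 in the other lines. The cytosolic stress-response gene NDRG1 and the mitophagy receptor BNIP3 were both highest in H1975, at 83.7 ± 2.53 and 78.0 ± 3.03 FPKM. P4HA1, a subunit of the collagen prolyl hydroxylase, was also highest in H1975 (33.8 ± 0.557) and lowest in H820 (6.96 ± 0.457).

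The oxygen-sensing hydroxylases did not rank alike. EGLN1 was highest in A549 (29.0 ± 1.86 FPKM), then H1975 (22.7 ± 0.376), H820 (13.5 ± 0.198) and H3255 (11.3 ± 0.414). EGLN3 was highest in H1975 (25.7 ± 0.189) and H820 (23.7 ± 0.633), at 11.7 ± 0.387 in A549 and at 5.78 ± 0.230 in H3255. ANKRD37, an ankyrin repeat protein, was the least abundant of the genes expressed in H3255, at 2.97 ± 0.361 FPKM, and was at 0.763 ± 0.118 in A549. In a fit of the 12 vehicle libraries with limma, 57 of 60 differences (10 genes, 6 pairs of lines) had an adjusted p under 0.05. The same was true of 84.3% of all genes for H3255 against H1975, 84.7% for H3255 against H820, 85.7% for H3255 against A549, 82.1% for H1975 against H820, 82.8% for H1975 against A549 and 83.8% for H820 against A549, so the members' share was near that of all genes. The differences that did not pass were CA9 (adjusted p = 0.103) and ANGPTL4 (adjusted p = 0.0854) between H3255 and H820, and ANKRD37 between H1975 and H820 (adjusted p = 0.211).

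**Figure D1:**
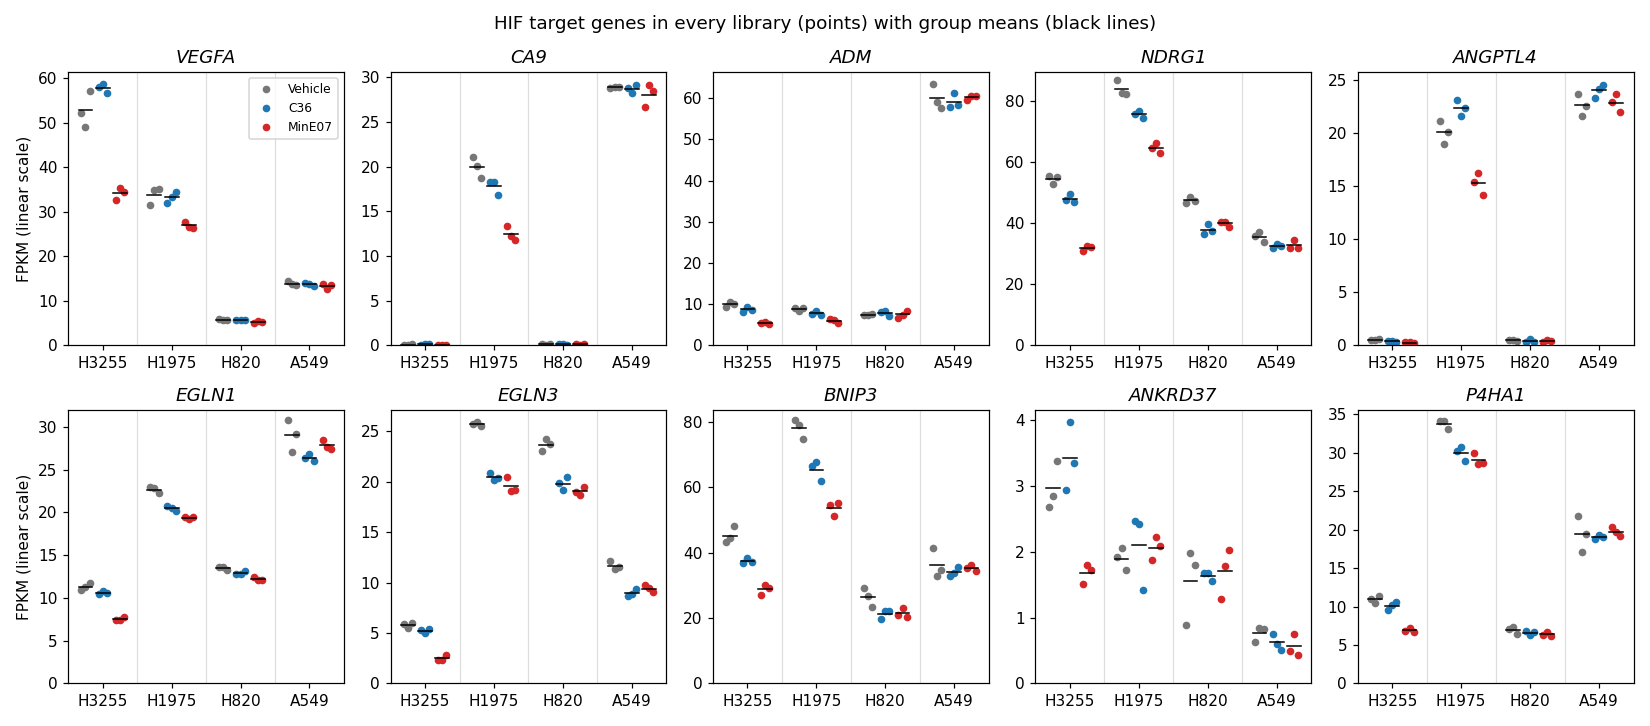
FPKM on a linear scale (y axis, separate for each gene) in every library of the 4 lines, with points coloured by treatment and black lines at the mean of 3 libraries. The MinE07 points of H3255 lie below the C36 points for 9 of the genes (VEGFA 32.7 to 35.2 against 56.7 to 58.7 FPKM), as was so for 27.1% of all genes tested. ANGPTL4, among the 9, was under the filter of 1 FPKM and not tested. In all 4 lines the vehicle points of EGLN3 lie above those of both aptamers (11.4 to 12.1 against 8.68 to 9.72 FPKM in A549). Of all genes tested in A549, 12.4% had the C36 points below the vehicle points and 7.05% the MinE07 points.

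The comparison of MinE07 with C36 asks what the EGFR aptamer did beyond the control aptamer. In H3255 the genes that could be tested were all lower with MinE07. VEGFA was at 58.0, 58.7 and 56.7 FPKM with C36 and at 32.7, 35.2 and 34.4 FPKM with MinE07, which left 59.0% of the C36 mean. The 2 groups lay far apart. The vehicle libraries (52.1, 49.1 and 57.0 FPKM) lay above all MinE07 libraries, as was so for 21.9% of all genes, and those at 52.1 and 49.1 lay below all C36 libraries. The log2 change of VEGFA from C36 was -0.75 (SE 0.051, 95% interval -0.87 to -0.64, adjusted p = 2.6e-06), and that from vehicle was -0.62. ADM was at 8.16, 9.28 and 8.63 FPKM with C36 and at 5.45, 5.69 and 5.07 with MinE07, a log2 change of -0.64 (adjusted p = 3.63e-05). A smaller share of expressing cells and less RNA per cell cannot be told apart in such bulk libraries, and FPKM gives each RNA relative to the rest.

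EGLN3 had the largest change of the 8 tested genes in this line. Its level was 5.26, 5.01 and 5.42 FPKM with C36 and 2.34, 2.31 and 2.82 FPKM with MinE07, or 47.6% of the C36 mean. The log2 change was -0.94 (95% interval -1.09 to -0.80, adjusted p = 3.16e-06). Its relative EGLN1 fell less, from 10.4, 10.8 and 10.6 to 7.37, 7.46 and 7.82 FPKM (log2 change -0.46, adjusted p = 1.06e-05). Neither pair of groups overlapped. ANKRD37 fell from 2.94, 3.97 and 3.35 to 1.51, 1.79 and 1.73 FPKM, a log2 change of -0.84 with a wide interval (-1.07 to -0.61, adjusted p = 0.000185).

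NDRG1, P4HA1 and BNIP3 completed the set. NDRG1 went from 47.4, 49.4 and 46.9 FPKM to 31.0, 32.4 and 32.2 FPKM (log2 change -0.58, adjusted p = 9.34e-07). P4HA1 went from 9.55, 10.2 and 10.6 FPKM to 6.76, 7.16 and 6.73 FPKM (log2 change -0.52, adjusted p = 1.81e-05). BNIP3 changed least, from 36.9, 38.5 and 37.2 FPKM to 27.0, 30.2 and 29.2 FPKM (log2 change -0.38, adjusted p = 0.000207). In each of these genes the highest MinE07 library lay below the lowest C36 library.

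In all, 8 of 8 tested members fell in H3255, where 20.0% of the 13429 genes tested were called lower, and 8 of 8 had groups that did not overlap with MinE07 lower, as 27.1% of all genes did. The median change of the 8 was -0.61 and that of all genes -0.01 on the log2 scale. Against vehicle the 8 also fell, with log2 changes from -1.07 (EGLN3) to -0.56 (EGLN1), where 17.2% of all genes were called lower. The 2 comparisons share the MinE07 libraries. CA9 and ANGPTL4 were under the filter of 1 FPKM on the mean of the 9 libraries and were not tested. ANGPTL4 was at 0.428, 0.394 and 0.292 FPKM with C36 and 0.285, 0.276 and 0.184 with MinE07, and CA9 was at or below 0.134 FPKM in every H3255 library. Without a filter in the fit of H3255 neither passed (adjusted p = 0.204 for ANGPTL4 and 0.148 for CA9). The summed level of 6 epithelial markers also moved in this line, from 2060 to 2105 FPKM with C36 to 1895 to 1948 with MinE07, and that of 4 lung markers from 229 to 236 FPKM with C36 to 259 to 278 with MinE07. Their part in the result was not tested.

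C36 against vehicle in H3255 gave 0 of 8 calls with limma, where 0.305% of all genes were called. An unadjusted p under 0.05 was found for 6 of 8 members and for 2136 of all 13429 genes tested. The members nearest to the adjusted threshold were BNIP3, at 43.2, 44.4 and 48.0 FPKM with vehicle (log2 change -0.27, adjusted p = 0.0537), and NDRG1, at 55.2, 52.7 and 54.9 FPKM with vehicle (log2 change -0.18, adjusted p = 0.0634). VEGFA and ANKRD37 were higher with C36 by 0.13 and 0.17 (adjusted p = 0.242 and 0.438). BNIP3 and NDRG1 both passed when the libraries were rescaled by medians of ratios (adjusted p = 0.0284 and 0.0340) and in 1 fit of all 36 libraries (adjusted p = 0.0406 and 0.0060), and BNIP3 passed without MinE07 library 1 (adjusted p = 0.0437) and without the further gene copies (adjusted p = 0.0484).

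In H1975, with L858R and T790M, 6 members fell, of which VEGFA, ADM, NDRG1 and BNIP3 had also fallen in H3255. CA9 and ANGPTL4, not tested in H3255, had the largest changes. CA9 was at 18.3, 18.2 and 16.9 FPKM with C36 and 13.4, 12.2 and 11.8 with MinE07, a log2 change of -0.50 (95% interval -0.63 to -0.37, adjusted p = 0.000506). ANGPTL4 was at 23.0, 21.6 and 22.3 FPKM with C36 and 15.4, 16.2 and 14.2 with MinE07, a log2 change of -0.54 (95% interval -0.66 to -0.42, adjusted p = 0.000251). For both genes the MinE07 libraries lay below all C36 and vehicle libraries. Of all genes, 21.6% had MinE07 libraries below all C36 libraries and 20.5% below all vehicle libraries.

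ADM and VEGFA, which code for secreted products, fell as well, as did BNIP3 and NDRG1. ADM was at 7.46, 8.40 and 7.44 FPKM with C36 and 6.34, 6.10 and 5.31 with MinE07 (log2 change -0.37, adjusted p = 0.00557). VEGFA was at 31.9, 33.3 and 34.4 FPKM with C36 and 27.7, 26.6 and 26.4 with MinE07 (log2 change -0.30, adjusted p = 0.00209). BNIP3 fell from 66.4, 67.7 and 62.0 to 54.5, 51.2 and 55.0 FPKM (log2 change -0.28, adjusted p = 0.00216). NDRG1 fell from 75.7, 76.7 and 74.4 to 64.5, 66.1 and 62.8 FPKM (log2 change -0.23, adjusted p = 0.00125). None of these groups overlapped.

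The hydroxylases EGLN1, EGLN3 and P4HA1, and ANKRD37, did not pass in H1975. EGLN1 changed by -0.08 (95% interval -0.14 to -0.02, adjusted p = 0.0724), EGLN3 by -0.06 (-0.13 to 0.01, adjusted p = 0.226) and P4HA1 by -0.04 (-0.12 to 0.03, adjusted p = 0.407). ANKRD37, at 2.47, 2.42 and 1.41 FPKM with C36 and 1.87, 2.23 and 2.08 with MinE07, changed by 0.00 with an interval from -0.35 to 0.36. Thus 6 of 10 members fell in H1975, where 11.1% of the 14183 genes tested were called lower, and their median change was -0.26 against -0.01 for all genes. Of the 10, 7 had groups that did not overlap with MinE07 lower, as 21.6% of all genes did. The summed level of 5 fibroblast markers was 12.1 to 13.8 FPKM with C36 and 16.1 to 17.1 with MinE07 in this line. The 4 lung markers, in this line almost wholly NKX2-1, summed to 17.1 to 18.8 FPKM and 22.4 to 23.6 FPKM, and the 6 epithelial markers to 1966 to 2045 FPKM and 2077 to 2171 FPKM. Their part in the result was not tested.

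Against vehicle, more members had moved in H1975. EGLN3 was at 25.7, 25.9 and 25.5 FPKM with vehicle, at 20.8, 20.1 and 20.4 with C36 and at 20.5, 19.1 and 19.2 with MinE07. Both aptamers thus left it between 19.1 and 20.8 FPKM, with log2 changes of -0.32 for C36 (adjusted p = 0.0177) and -0.39 for MinE07 (adjusted p = 0.000122). P4HA1, EGLN1 and BNIP3 were also at their highest with vehicle. In total 9 of 10 members were lower with MinE07 than with vehicle, all except ANKRD37, where 12.9% of all genes were called lower. For C36 against vehicle 1 of 10 was called lower, EGLN3, where 0.190% of all genes were called lower. An unadjusted p under 0.05 was found for 8 of 10 members and for 2032 of all 14183 genes tested. The EGLN3 call was lost without vehicle library 2 (adjusted p = 0.0901) or 3 (0.0924), without C36 library 1 (0.0626), 2 (0.106) or 3 (0.0871), and without the filter on low values (0.0696). In 1 fit of all libraries 3 members were called, with NDRG1 (adjusted p = 0.0356) and EGLN1 (0.0178) added.

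**Figure D2:**
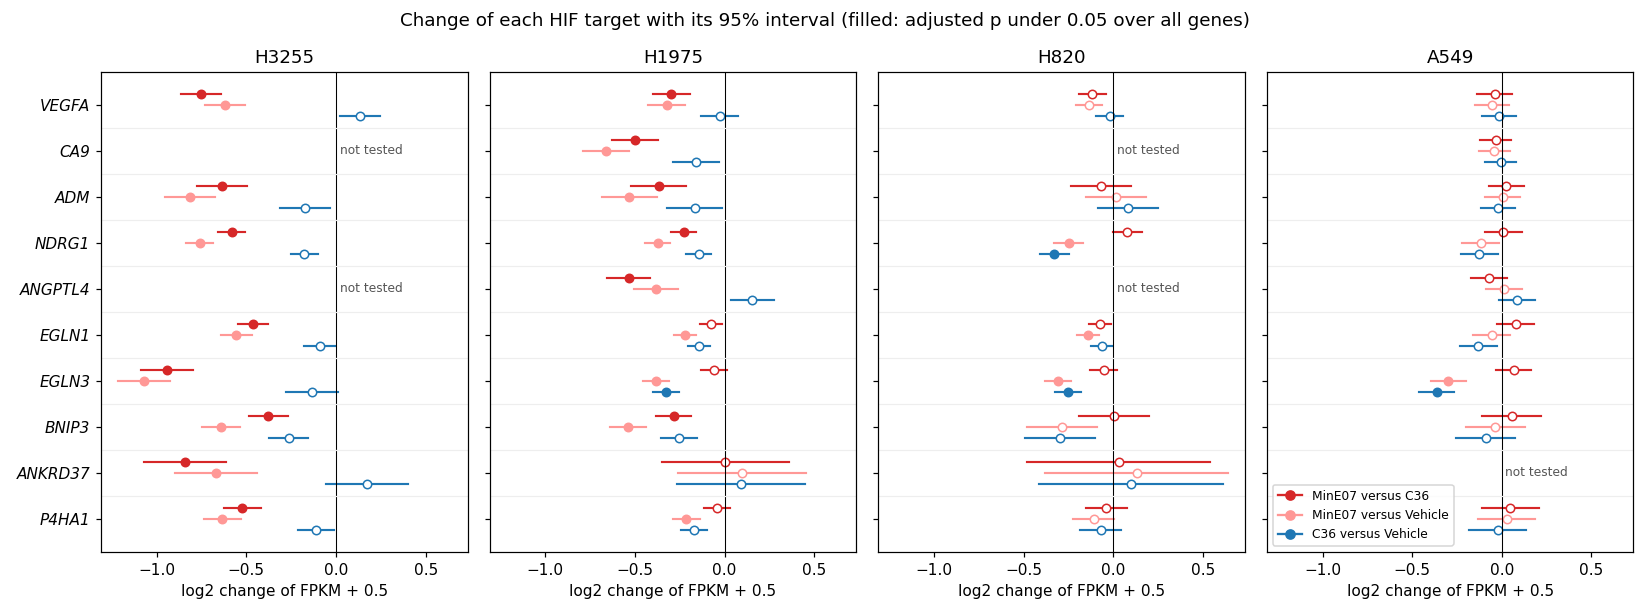
Log2 change of FPKM + 0.5 (x axis) for each gene (y axis) in the 4 lines, with bars for the 95% interval and filled points for an adjusted p under 0.05 over all genes tested. Dark red points (MinE07 against C36) are filled for 8 genes in H3255 and 6 in H1975 and for none in H820 and A549, where the filled points are those against vehicle, such as EGLN3 at -0.31 and -0.30 for MinE07.

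In H820, with an exon 19 deletion and T790M, MinE07 and C36 gave close levels. VEGFA was at 5.70, 5.72 and 5.57 FPKM with C36 and 5.08, 5.33 and 5.17 with MinE07, a log2 change of -0.12 (95% interval -0.19 to -0.04, adjusted p = 0.326). EGLN1 changed by -0.07 (-0.13 to -0.01, adjusted p = 0.409) and NDRG1 by 0.08 (-0.0013 to 0.16, adjusted p = 0.499). The groups of VEGFA and EGLN1 did not overlap, with MinE07 lower, as was so for 6.78% of all genes. With limma 0 of 8 tested members were called, as were 0.0364% of the 13753 genes. An unadjusted p under 0.05 was found for 2 of the 8 and for 1396 of all genes tested. For each of the 8 members the lower bound of the interval lay above the change of the same gene in H3255, and the widest interval, that of ANKRD37, ran from -0.48 to 0.54.

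NDRG1 and EGLN3 fell with both aptamers in H820 relative to vehicle. NDRG1 was at 46.5, 48.6 and 47.1 FPKM with vehicle, 36.2, 39.6 and 37.2 with C36, and 40.4, 40.3 and 38.7 with MinE07. The log2 changes from vehicle were -0.33 for C36 (adjusted p = 0.00338) and -0.25 for MinE07 (adjusted p = 0.00633). EGLN3 was at 23.0, 24.3 and 23.8 FPKM with vehicle, 19.9, 19.2 and 20.4 with C36, and 19.0, 18.7 and 19.5 with MinE07. Its log2 changes were -0.25 (adjusted p = 0.00518) and -0.31 (adjusted p = 0.00155). No aptamer library of either gene reached the lowest vehicle library. Of all genes, 10.9% had every C36 library below every vehicle library, and 9.18% had every MinE07 library below them. The 4 lung markers summed to 34.9 to 36.7 FPKM with vehicle, 29.0 to 30.6 with C36 and 29.0 to 31.7 with MinE07, and their part in the result was not tested.

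EGLN1 was lower with MinE07 than with vehicle in H820 (12.5, 12.1 and 12.1 against 13.7, 13.6 and 13.3 FPKM, log2 change -0.14, adjusted p = 0.0291). This made 3 of 8 members called lower for MinE07, where 1.03% of all genes were called lower, and 2 of 8 for C36, where 1.29% were called lower. BNIP3 had changes of -0.29 with either aptamer and did not pass (adjusted p = 0.110 for C36 and 0.120 for MinE07), but passed for both without vehicle library 3, its lowest (0.0427 and 0.0402), and in 1 fit of all libraries (0.0147 and 0.0170). Without the filter on low values only EGLN3 remained called for MinE07, since NDRG1 (adjusted p = 0.0512) and EGLN1 (0.0843) did not pass. EGLN1 was also lost without vehicle library 1 (0.0890) or 2 (0.0956), C36 library 1 (0.0527), and MinE07 library 2 (0.107) or 3 (0.0995). CA9 and ANGPTL4 stayed at or below 0.122 and 0.543 FPKM and were not tested.

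A549, with wild-type EGFR, had the highest levels of ADM, CA9, ANGPTL4 and EGLN1 and no change between the aptamers that passed the test. ADM was at 57.8, 61.4 and 58.4 FPKM with C36 and 59.6, 60.6 and 60.6 with MinE07, and CA9 at 28.8, 28.2 and 29.2 with C36 and 26.6, 29.1 and 28.5 with MinE07. The 9 tested members had log2 changes between -0.07 (ANGPTL4, 95% interval -0.17 to 0.03) and 0.08 (EGLN1, -0.03 to 0.18). With limma 0 of 9 were called and 0 had an unadjusted p under 0.05. Of all 13425 genes tested 0% were called, and 1455 had an unadjusted p under 0.05. ANKRD37 was under the filter, at 0.433 to 0.838 FPKM.

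EGLN3 again differed from vehicle in A549. It was at 12.1, 11.4 and 11.5 FPKM with vehicle, 8.68, 8.89 and 9.33 with C36, and 9.72, 9.47 and 9.03 with MinE07. The vehicle libraries lay above all 6 aptamer libraries. Of all genes, 12.4% had every C36 library below every vehicle library, and 7.05% had every MinE07 library below them. The log2 change was -0.36 for C36 (95% interval -0.46 to -0.26, adjusted p = 0.00516) and -0.30 for MinE07 (-0.40 to -0.20, adjusted p = 0.0440). It was the 1 member of 9 called for C36 against vehicle, where 2.38% of all genes were called lower, and the 1 of 9 for MinE07 against vehicle, where 0.0968% were. The MinE07 call held without vehicle library 1 and was lost without each of the other 8 libraries (adjusted p from 0.0717, without C36 library 1, to 0.144, without MinE07 library 3) and without the filter (adjusted p = 0.132). For C36, EGLN1 was added without vehicle library 2 (log2 change -0.18, adjusted p = 0.0482), and 3 members were called in 1 fit of all libraries. The 4 immune markers, almost wholly CD68, summed to 66.3 to 80.7 FPKM with vehicle and 92.6 to 96.6 with C36 in this line. PTPRC was at or below 0.0158 FPKM.

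EGLN3 was the member called for the control aptamer in 3 lines, with changes of -0.32 in H1975, -0.25 in H820 and -0.36 in A549, and H3255 had a change of -0.13 (95% interval -0.28 to 0.01). The difference between H3255 and A549 in this change was 0.23 (adjusted p = 0.0457), where 1.70% of all genes were called higher, and did not pass at a pseudocount of 0.1 (0.0669), without the filter (0.0900) or after rescaling (0.0525). It was also lost without any 1 of 19 of the 36 libraries, with an adjusted p of up to 0.122 (without vehicle library 2 of H3255). NDRG1 fell more with C36 in H820 than in A549, by -0.20 (adjusted p = 0.0177), where 3.52% of all genes were called lower. That call was lost without vehicle library 2 (0.0557) or C36 library 1 (0.0623) of H820 and without vehicle library 3 (0.0569) or C36 library 2 (0.0510) of A549. The other 4 pairs of lines had 0 calls among 10 members for C36 against vehicle with limma, and between 0 and 4 members with an unadjusted p under 0.05. All genes at that unadjusted p were not counted for these terms, so nothing is read from the members' counts. Of all genes, 0.494% were called between H3255 and H1975, 1.96% between H3255 and H820, 1.33% between H1975 and H820, and 3.53% between H1975 and A549.

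Differences between lines in the change from C36 to MinE07 were tested as interactions, with all 36 libraries fitted together and all 10 members tested. Against A549, 8 of 10 members fell more in H3255 (14.0% of all genes were called lower in this term) and 7 of 10 fell more in H1975 (6.88% called lower). Against H820, 8 of 10 fell more in H3255 (11.2% called lower) and 3 of 10 in H1975 (4.19% called lower), of which NDRG1 (-0.31) was tested within both lines. The others, ANGPTL4 and CA9, were under the filter in H820 and entered this fit only through their levels in H1975 and A549, so their terms hold little but the change in H1975. ANKRD37 was under the filter in A549, and its term for H3255 against A549 did not pass at a pseudocount of 0.1 (adjusted p = 0.0536) or without the filter on low values (0.0627), nor without C36 library 2 (0.0672) or MinE07 library 1 (0.0559) of H3255, or C36 library 3 (0.0618) or MinE07 library 2 (0.0735) of A549. For H1975 against A549, CA9 and ANGPTL4 did not pass at a pseudocount of 0.1. BNIP3 (-0.34) was lost without the filter (0.0677), without C36 library 1 (0.0556) or 2 (0.0650) or MinE07 library 2 (0.0671) of H1975, and without C36 library 1 (0.0610) or MinE07 library 2 (0.0561) of A549. EGLN1 (-0.15), which did not pass within H1975, was lost without C36 library 1 (0.0654) or 2 (0.0527) or MinE07 library 2 (0.0577) of H1975, and without C36 library 3 (0.0637) or MinE07 library 1 (0.0680) of A549. H820 and A549 had 0 of 10 calls between them with limma, where 0.323% of all genes were called. An unadjusted p under 0.05 was found for 1 of the 10, and all genes at that p were not counted.

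Between H3255 and H1975 the members differed in an uneven way. EGLN3 differed by -0.88, falling more in H3255 than in H1975 (95% interval -1.02 to -0.75, adjusted p = 5.32e-11). ANKRD37 differed by -0.85 (adjusted p = 0.0179), a call lost without C36 library 2 of H3255 (0.0557) or C36 library 3 of H1975 (0.0719). P4HA1 (-0.48), VEGFA (-0.46), EGLN1 (-0.39) and NDRG1 (-0.35) also fell more in H3255, which made 6 of 10 called lower, where 8.48% of all genes were. ADM (-0.27, 95% interval -0.47 to -0.07, adjusted p = 0.0608) did not pass. BNIP3 differed by -0.09 with an interval from -0.30 to 0.11 (adjusted p = 0.617). CA9 had a positive term (0.31, adjusted p = 0.0125), where 6.74% of all genes were called higher. CA9 was at or near 0 in H3255 and entered this fit only through H1975 and A549, and the term became -0.18 (adjusted p = 0.686) at a pseudocount of 0.1, so no line difference is read from it.

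**Figure D3:**
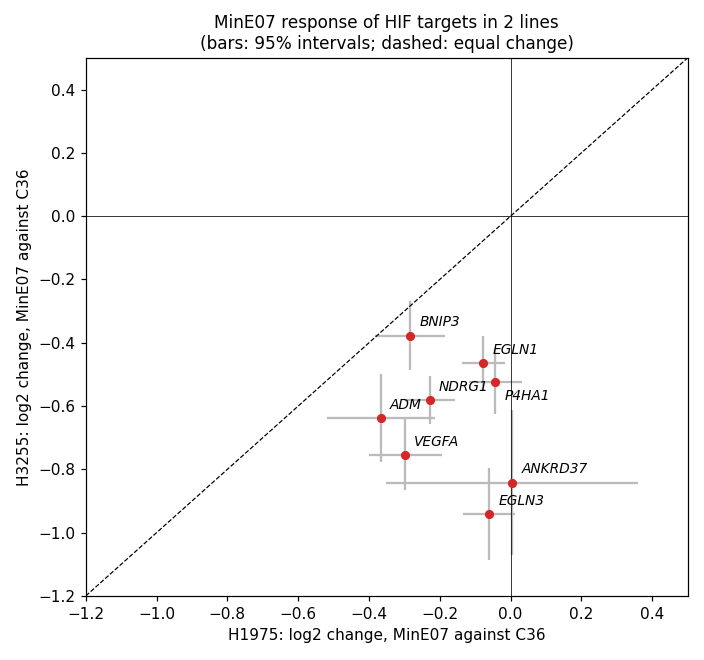
Log2 change between MinE07 and C36 in H1975 (x axis) and in H3255 (y axis) for the 8 members tested in both lines, with bars for 95% intervals and a dashed line of equal change. All 8 points lie below the dashed line, with EGLN3 (-0.94 in H3255, -0.06 in H1975) and ANKRD37 (-0.84 and 0.00) far from it and BNIP3 (-0.38 and -0.28) close to it.

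Of the genes of the oxygen-sensing machinery, 4 of 10 tested were called in H3255. In this line EPAS1, which codes for HIF-2 alpha, fell from 55.3, 55.8 and 56.6 FPKM with C36 to 39.2, 42.3 and 41.2 FPKM with MinE07 (log2 change -0.45, adjusted p = 5.1e-06). HIF1A, which codes for HIF-1 alpha, went from 124, 121 and 124 FPKM to 105, 107 and 103 FPKM (log2 change -0.23, adjusted p = 0.000239), and the partner ARNT2 changed by -0.16 (adjusted p = 0.0122). EGLN2, the third hydroxylase, rose from 30.1, 30.1 and 30.4 FPKM to 37.8, 37.3 and 39.2 FPKM (log2 change 0.33, adjusted p = 3.76e-05), opposite to EGLN1 and EGLN3. Thus 3 of 10 fell and 1 rose, where 20.0% of all genes were called lower and 16.6% higher, so the counts were near those shares. The median of the 10 was -0.08, against -0.01 for all genes. Against vehicle, EPAS1 (-0.45) and HIF1A (-0.25) fell, and EGLN2 (0.43) and VHL (0.16, adjusted p = 0.0179) rose, where 17.2% of all genes were called lower and 21.4% higher. The VHL call was lost without vehicle library 1 (0.0571) or 3 (0.0639) or MinE07 library 2 (0.0703), without the filter (0.0640) and after rescaling (0.0528).

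In H1975 the direction of EPAS1 was the opposite one. It was at 30.0, 29.5 and 30.3 FPKM with C36 and 34.1, 33.0 and 33.1 with MinE07 (log2 change 0.16, adjusted p = 0.0134), although the call was lost without the filter on low values (adjusted p = 0.0534) and without C36 library 2 (0.0532). CITED2, a competitor for the coactivators of HIF-1, rose by 0.17 (adjusted p = 0.00619), and it changed by -0.21 with C36 against vehicle (adjusted p = 0.0437). The latter call was lost without the filter (0.135) and without each of 8 of the 9 libraries (up to 0.182, without C36 library 3), and held without vehicle library 1. HIF1A changed by 0.05 (95% interval -0.05 to 0.16, adjusted p = 0.492). Of 9 tested machinery genes 2 rose and 0 fell with limma, where 8.88% of all genes were called higher and 11.1% lower. In H820 and A549, 0 of 10 passed for MinE07 against C36, with 3 and 0 at an unadjusted p under 0.05. Such a p was found for 1396 of all 13753 genes in H820 and 1455 of 13425 in A549. The difference between H3255 and H1975 was -0.60 for EPAS1 (adjusted p = 6.27e-09) and -0.28 for HIF1A (adjusted p = 0.000108).

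A wider list held 32 further targets outside glycolysis. In H3255, 11 of 22 tested genes fell with MinE07 against C36 and 1 rose, where 20.0% of all genes were called lower and 16.6% higher. Their median was -0.12, against -0.01 for all genes. AK4, a mitochondrial adenylate kinase, fell from 1.97, 1.99 and 1.85 to 0.727, 0.808 and 0.787 FPKM (log2 change -0.94, adjusted p = 8.62e-07), and the transcriptional repressor BHLHE40 fell from 34.9, 37.4 and 35.7 to 18.8, 19.2 and 19.5 FPKM (log2 change -0.89, adjusted p = 7.19e-08). DDIT4, an inhibitor of mTOR signalling, rose from 11.3 ± 0.658 FPKM (SD, n = 3) to 15.1 ± 1.39 FPKM (log2 change 0.40, adjusted p = 0.00108). Against vehicle, 12 of the 22 fell and 2 rose, where 17.2% of all genes were called lower and 21.4% higher. DDIT4 rose by 0.48 and HMOX1, the haem oxygenase, by 0.15. The HMOX1 call was lost after rescaling (0.11, adjusted p = 0.132), without the filter (0.131) and without vehicle library 2 (0.0525) or 3 (0.144), C36 library 3 (0.0565), or MinE07 library 2 (0.142) or 3 (0.0980).

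In H1975, 4 of 30 tested genes of this list were lower with MinE07 than with C36 and 4 were higher, near the 11.1% and 8.88% of all genes. Their median was -0.05. The lower genes with the largest changes were HILPDA, a lipid droplet protein (-0.16, adjusted p = 0.0417), and HIGD1A (-0.15, adjusted p = 0.0115). The higher ones were HMOX1 (0.22, adjusted p = 0.0032) and CCNG2 (0.21, adjusted p = 0.00556). Against vehicle 14 of 30 fell and 3 rose, where 12.9% of all genes were called lower and 10.8% higher, led by HILPDA (-0.34) and INSIG2 (-0.28) and by HMOX1 (0.33) and BHLHE41 (0.17). Without the filter, HILPDA against C36 (adjusted p = 0.146) and BHLHE41 against vehicle (0.133) did not pass. HILPDA against C36 was also lost without each of 7 of the 9 libraries (up to 0.141, without MinE07 library 3), and held without vehicle library 1 and MinE07 library 1. BHLHE41 was lost after rescaling (0.0516) and without each of 7 of the 9 (up to 0.144, without MinE07 library 3), and held without library 2 of vehicle and of MinE07. In H820 and A549, 0 of 29 and 0 of 25 passed for MinE07 against C36 with limma, with 4 and 3 at an unadjusted p under 0.05. So low a p was found for 1396 of all 13753 genes in H820 and 1455 of 13425 in A549.

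With C36 against vehicle, A549 had 3 of 25 further targets lower and 3 higher, where 2.38% of all genes were called lower and 3.62% higher. HILPDA (-0.28, adjusted p = 0.0202) and BNIP3L, a mitophagy receptor related to BNIP3 (-0.27, adjusted p = 0.00684), led the falls, and STC2 (0.36, adjusted p = 0.00736) was among the rises. In H820, DDIT4 (-0.34, adjusted p = 0.00643) and CCNG2 (-0.24, adjusted p = 0.0319) were 2 of 3 genes lower with C36 of 29 tested, where 1.29% of all genes were called lower. In the same line CITED2 of the machinery list was higher (0.20, adjusted p = 0.0103), and MinE07 gave DDIT4 a change of -0.37 and MXI1 one of 0.24 from vehicle. H3255 and H1975 had 0 further targets called for C36 with limma. DDIT4 thus rose with MinE07 in H3255 and fell with both aptamers in H820. It was also called lower with MinE07 than with vehicle in H1975 (log2 change from -0.20 to -0.15 over the alternatives). The H820 calls for DDIT4, CCNG2 and CITED2 with C36, and the A549 call for HILPDA, did not pass without the filter on low values (adjusted p from 0.0651 to 0.154). The CCNG2 call was also lost without vehicle library 1 (0.0566), 2 (0.111) or 3 (0.0854) or C36 library 1 (0.113) or 2 (0.110), and the CITED2 call without C36 library 1 (0.0532). The HILPDA call in A549 was lost without C36 library 1 (0.0555), 2 (0.0674) or 3 (0.0910).

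The glycolytic targets, set beside the 10 members, fell in the same 2 lines. For MinE07 against C36, 14 of 14 fell in H3255 (median -0.43), where 20.0% of all genes were called lower, and 8 of 14 in H1975 (median -0.13), where 11.1% were. With limma 0 of 14 in H820 and 0 of 13 in A549 passed, with 1 in each at an unadjusted p under 0.05. Of all genes, 1396 of 13753 in H820 and 1455 of 13425 in A549 had such a p. PGK1, a kinase of glycolysis, had a log2 change of -0.63 in H3255 (adjusted p = 2.51e-06) and one of -0.18 in H1975 (adjusted p = 0.00285). SLC2A1, the main glucose transporter, had one of -0.42 in H3255 (adjusted p = 0.000132). With C36 against vehicle 4 of 13 glycolytic targets fell in A549 (2.38% of all genes), 1 of 14 in H1975 (0.190%) and 1 of 14 in H820 (1.29%). In H3255 0 of 14 passed, and 9 had an unadjusted p under 0.05, as had 2136 of all 13429 genes tested. SLC2A1 was among the 4 in A549 (-0.19, adjusted p = 0.0237), a call lost without the filter (0.0948) and without vehicle library 3 (0.0587) or C36 library 1 (0.0817), 2 (0.0582) or 3 (0.101).

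**Figure D4:**
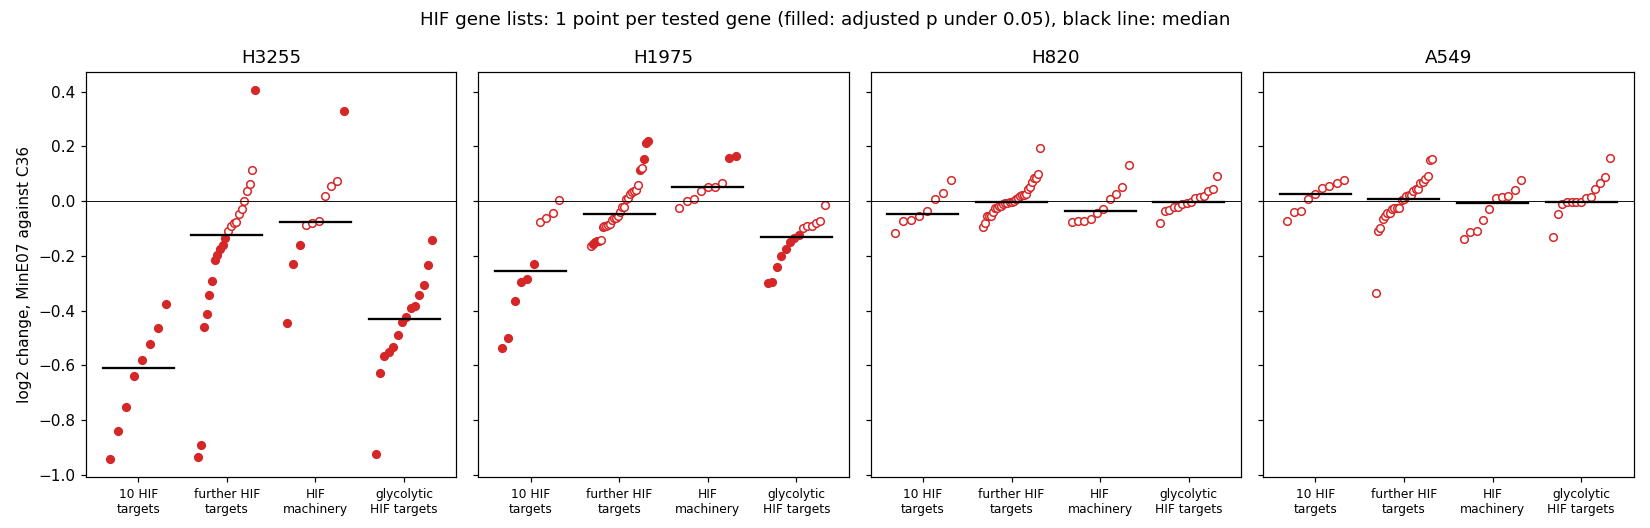
Log2 change between MinE07 and C36 (y axis) for the tested genes of 4 lists in each line, with 1 point per gene, filled at an adjusted p under 0.05, and a black line at the median. In H3255 the medians are -0.61 for the 8 tested members, -0.12 for the further targets, -0.08 for the machinery and -0.43 for the glycolytic targets, and in H820 and A549 no point is filled.

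How the members moved together was described by Pearson's r over the 36 libraries after subtraction of the mean of each line, for the 7 members tested in all 4 lines. Their 21 pairs had r between 0.728 and 0.961, with a median of 0.846. The points share 3 treatment groups within each line and differ in depth, so r is a description. Within the 9 libraries of a line the median r was 0.955 for H3255, 0.866 for H1975, 0.616 for H820 and 0.330 for A549. Among 10994 genes, those most like EGLN3 were LDHA (0.96) and PKM (0.96). Those most like EGLN1 were a further copy of LDHA (0.97) and PGK1 (0.97), and for NDRG1 they were LDHA (0.93) and PDK1 (0.92). P4HA1 was most like PGAM1 (0.93) and CPOX (0.93), BNIP3 like VDAC1 (0.89) and HPRT1 (0.89), and ADM like F3 (0.92) and TUBB4B (0.92). VEGFA was most like AREG (0.95), an EGFR ligand, and ERRFI1 (0.94), a feedback inhibitor of EGFR.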

How the data were processed

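RNA was measured as poly-A selected, strand-marking libraries read as pairs of 100 bases, per the labels' protocols. The authors deposited 1 FPKM value per gene and library, and the submitters' processing notes name HISAT2, Cuffdiff, GRCh38.p12 and hg38. For versions, gene models and the use of strand in counting the entry is: not given in the sources used here. Of 68271 entries per library, 1874 without a name and 31 repeats of a name were left out (at most 0.005% of FPKM). Totals of counts are unknown. Relative depth was read from the steps of low values, over a 2.35-fold range. No interval from counting is given.

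Groups came from the labels. log2(FPKM + 0.5) was fitted with limma 3.58.1 (R 4.3.3, trend, robust) for the 9 libraries of a line, for genes with a mean of at least 1 FPKM in the fit. Fold changes are on that scale, which understates changes of low genes. P-values are two-sided and Benjamini-Hochberg adjusted over all genes tested, with calls under 0.05. Differences between lines were interaction terms in a fit of 36 libraries with 14572 genes, and vehicle levels were compared in 12 libraries. The procedure was tested on simulated data. The members and lists were chosen with earlier results of these data known. All members were named, and of the lists those with the largest called changes in each direction; 1 such gene is not reported here. Alternatives were pseudocounts of 0.1 and 1, no filter, rescaling by medians of ratios, further gene copies left out (7470 entries), a replicate block, 1 fit of all libraries, and each library left out.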

Additional observations from a re-analysis of the deposited data

Results flagged for a closer look

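A difference between lines that passed an interaction test in limma (adjusted p under 0.05) is given here as the first line's log2 change minus the second's, in the fit of 36 libraries. CA9 and ANGPTL4 were under the filter in H3255 and H820, and ANKRD37 in A549, so a term that sets those lines against another holds little but the other line's change, and no line difference is read from it. For CA9 in H3255 minus H1975 the sign changed at a pseudocount of 0.1. The groups have 3 libraries each, so single libraries were not examined for standing apart.

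For MinE07 against C36, H3255 minus H1975 gave -0.46 for VEGFA, 0.31 for CA9, -0.35 for NDRG1, -0.39 for EGLN1, -0.88 for EGLN3, -0.85 for ANKRD37 and -0.48 for P4HA1. Among the genes of the alpha subunits it gave -0.28 for HIF1A and -0.60 for EPAS1. H3255 minus H820 gave -0.64 for VEGFA, -0.57 for ADM, -0.66 for NDRG1, -0.39 for EGLN1, -0.89 for EGLN3, -0.38 for BNIP3, -0.87 for ANKRD37 and -0.48 for P4HA1, with -0.15 for HIF1A and -0.38 for EPAS1. H3255 minus A549 gave -0.71 for VEGFA, -0.66 for ADM, -0.59 for NDRG1, -0.54 for EGLN1, -1.01 for EGLN3, -0.43 for BNIP3, -0.76 for ANKRD37 and -0.57 for P4HA1, with -0.31 for HIF1A and -0.46 for EPAS1.

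H1975 minus H820 gave -0.48 for CA9, -0.31 for NDRG1 and -0.58 for ANGPTL4, and 0.22 for EPAS1 (adjusted p = 0.0162). H1975 minus A549 gave -0.26 for VEGFA, -0.46 for CA9, -0.39 for ADM, -0.24 for NDRG1, -0.46 for ANGPTL4, -0.15 for EGLN1 and -0.34 for BNIP3. For C36 against vehicle, H3255 minus A549 gave 0.23 for EGLN3, and H820 minus A549 gave -0.20 for NDRG1. The EPAS1 term of H1975 minus H820 was lost without MinE07 library 3 of H820 (adjusted p = 0.0557), and the HIF1A term of H3255 minus H820 without the filter (0.0548) and without any 1 of 6 libraries (adjusted p up to 0.0625).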

How the results depend on the processing

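The counts of members called for MinE07 against C36 (8 in H3255, 6 in H1975, 0 in H820 and A549) were the same under each alternative run, except 10 for H3255 in 1 fit of all libraries, where CA9 and ANGPTL4 entered only through their levels in other lines, and leaving out single libraries gave 8 to 8, 6 to 6, 0 and 0. For MinE07 against vehicle the ranges over left-out libraries were 8 to 8 (H3255), 9 to 9 (H1975), 2 to 4 (H820) and 0 to 1 (A549). For C36 against vehicle they were 0 to 1 (H3255 and H1975 alike), 2 to 3 (H820) and 1 to 2 (A549). Line differences ranged from 31 to 37 for MinE07 minus C36 and from 0 to 3 for C36 minus vehicle, and vehicle levels from 55 to 58. Without the filter on low values there were 0 calls rather than 1 for C36 against vehicle in H1975, 1 rather than 3 for MinE07 against vehicle in H820, and 0 rather than 1 in A549. C36 against vehicle gave 2 calls in H3255 and 2 in H1975 after rescaling, 1 and 2 without further copies, and 2, 3 and 3 (A549) in 1 fit of all libraries, which also gave 3 rather than 2 in H820 and 4 rather than 3 there for MinE07 against vehicle. The line differences for C36 were 1 rather than 2 at a pseudocount of 0.1, without the filter and after rescaling. The cause was not tested. Libraries with the same number deviated together with correlations from -0.163 to 0.246, and in no comparison were all 3 over 0.1. Such correlations cannot exclude a shared experiment, and no conclusion is drawn from them. With the replicate block, calls were 0 rather than 1 for C36 against vehicle in H1975, 0 rather than 1 for MinE07 against vehicle in A549 and 2 rather than 3 in H820.

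Changes of sign concerned small values and CA9. At a pseudocount of 0.1 CA9 gave -0.18 for H3255 minus H1975. ANKRD37 for MinE07 against C36 in H1975 gave -0.00019 at a pseudocount of 1 and -0.0060 after rescaling, which also gave -0.0062 for BNIP3 in H820, and -0.0092 for ADM against vehicle in A549. With single libraries left out, the following uncalled log2 changes spanned 0. For MinE07 against C36 they were ANKRD37 in H1975 (-0.20 to 0.11), ADM (-0.14 to 0.0018), BNIP3 (-0.049 to 0.046) and ANKRD37 (-0.077 to 0.17) in H820, and CA9 (-0.061 to 0.0020), NDRG1 (-0.031 to 0.028) and EPAS1 (-0.015 to 0.053) in A549. For MinE07 against vehicle they were ADM (-0.059 to 0.085) and ANKRD37 (-0.13 to 0.29) in H820, and ADM (-0.024 to 0.044), ANGPTL4 (-0.018 to 0.047), BNIP3 (-0.10 to 0.059) and P4HA1 (-0.059 to 0.11) in A549. For C36 against vehicle they were VEGFA (-0.077 to 0.0014) and ANKRD37 (-0.018 to 0.30) in H1975, ANKRD37 in H820 (-0.16 to 0.26), and VEGFA (-0.035 to 0.010), CA9 (-0.017 to 0.0055), ADM (-0.050 to 0.019), BNIP3 (-0.16 to 0.0041) and P4HA1 (-0.11 to 0.063) in A549.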
